A study of Mus musculus with 18 samples.

Results

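miR-31 and miR-335 were followed across mammary tumours of 18 mouse strains. Their members are the rows of the deposited miRNA table named for these miRNAs, arms included and star rows left out, which gave 3 of 583 rows: miR-31, miR-335-5p and miR-335-3p. miR-31 and miR-335-5p had a mean of at least 10 CPM and were among the 281 rows tested, and miR-335-3p, with a mean of 6.80 CPM, was not. CPM are the reads of a miRNA set to a common total of miRNA reads per library, then divided by a scale factor for each library. Each sample is RNA pooled from mammary tumours of F1 mice of 1 AKXD recombinant inbred strain and the transgenic line FVB/N-TgN(MMTV-PyVT)634Mul. The strains are AKXD 2, 3, 7, 9, 10, 11, 13, 14, 16, 18, 20, 21, 22, 23, 24, 25, 27 and 28, with 1 library each. AKXD strains are inbred mosaics of the AKR/J and DBA/2J genomes, and each F1 mouse carries 1 such set beside 1 FVB/N set. All of them carry the polyoma virus middle T oncogene, which the mouse mammary tumour virus promoter drives mainly in mammary epithelium. Pool sizes, ages of the mice and measures of metastasis are not given in the labels, and no tissue without tumour was analysed here. As n = 1 for every strain, strain, pool and library differences cannot be told apart, and p-values below measure only the spread among the 18 libraries.

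A mature miRNA guides Argonaute to messenger RNAs that pair with its seed, bases 2 to 8 from the 5′ end, and lowers their translation and stability. One arm of the hairpin is usually kept as the guide while the other, the star arm, is mostly degraded. In human breast cancer cells miR-31 represses a set of genes of invasion and survival, among them RHOA, ITGA5 and RDX, and miR-335 represses SOX4 and TNC. Both are therefore known as suppressors of metastasis, although miR-31 has also been described as tumour promoting in other settings. Mir335 lies within Mest, an imprinted gene expressed from the paternal allele. In a bulk tumour, a lower level of a miRNA cannot be told apart from fewer cells of the type that makes it.

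The mature sequences (RefSeq, GRCm38.p6) are printed because the members have unlike seeds and because each hairpin gave reads from both arms. Capitals mark the seed, and the row miR-31 was taken as the 5p arm and its star row as miR-31-3p.
miR-31 (5p): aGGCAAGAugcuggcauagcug
miR-31-3p: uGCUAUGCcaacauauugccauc
miR-335-5p: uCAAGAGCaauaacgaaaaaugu
miR-335-3p: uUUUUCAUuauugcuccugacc
None of the 4 seeds was shared with any of the other mature miRNAs among 1679 names in that table. The nearest other mature sequence was 6 edits (substitutions, insertions or deletions) from miR-31-5p and 8 edits from miR-335-5p.

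The hairpins show how the arms sit, with both mature arms in capitals and the loop between them.
Mir31: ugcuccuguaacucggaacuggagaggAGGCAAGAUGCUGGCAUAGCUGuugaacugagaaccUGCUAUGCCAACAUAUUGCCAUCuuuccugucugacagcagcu
Mir335: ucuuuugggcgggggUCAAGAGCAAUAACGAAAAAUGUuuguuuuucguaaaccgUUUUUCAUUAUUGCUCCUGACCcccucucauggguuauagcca
In GRCm38, Mir31 is at chr4:88910557-88910662 on the minus strand, in exon 3 of a lincRNA gene on the same strand (chr4:88909855-88938521, GENCODE). Mir335 is at chr6:30741299-30741396 on the plus strand, in an intron of Mest (chr6:30723547-30748465). The table itself has no coordinates, and mm9 is the build named by the submitters.

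Depth ranged from 4358313 miRNA reads in strain 7 to 14947268 in strain 27. Scale factors ran from 0.671 in strain 14 to 1.67 in strain 28. A first principal component over the 281 rows held 27.6% of the variance, and strains 10, 13, 14 and 20 had its lowest values. The library of strain 28 stands apart in miR-21, a miRNA abundant in carcinomas, at 274 CPM against 52917 to 79690 CPM in the other 17. Other abundant miRNAs also depend on this library, since slopes of let-7c and miR-146b given below rest on it. Over the 18 libraries let-7c fell as low as 8647 CPM (mean 182263 CPM) and miR-146b as low as 941 CPM (mean 41724 CPM). The epithelial miR-200 family marks mammary epithelium, and its 5 rows summed to 28510 (strain 16) to 54711 CPM (strain 25), so no library lacked it.

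miR-31, the guide arm of its hairpin, was a moderately abundant miRNA, ranking 49 of 281 by mean level. It averaged 1370 ± 487 CPM (SD, n = 18), and 1327 ± 465 CPM over the 17 strains other than strain 28. The lowest level was in strain 18, at 499 CPM, followed by strain 22 at 683 CPM, strain 21 at 725 CPM and strain 2 at 728 CPM. A step of 0.53 log2, the widest in the order of strains, separated these 4 from the other 14. Strain 11 came next with 1054 CPM, then strain 27 with 1092 CPM, strain 20 with 1223 CPM and strain 16 with 1280 CPM (1279.5). Strain 13 had 1485 CPM, strain 25 had 1527 CPM, strain 24 had 1530.1 CPM and strain 3 had 1569.8 CPM, all near the median of 1506 CPM. Above them stood strain 7 at 1682 CPM, strain 14 at 1759 CPM, strain 10 at 1859 CPM, strain 23 at 1919 CPM and strain 9 at 1948 CPM. Strain 28 was highest, at 2103 CPM, which is 4.21 times the level in strain 18. Strain 28 was also highest and strain 18 lowest without scale factors, at 3518 and 567 CPM. As strain 28 has the largest scale factor as well, 1.67, its top place without factors was fixed and is no separate check.

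The spread of miR-31 was 0.61 log2 (SD, n = 18), against 0.014 log2 from read counting, since each library held 5585 to 25907 reads of it. Of the 17 pairs of neighbours in the order, 11 had 95% exact Poisson intervals that did not overlap. The closest levels, such as those of strains 21 and 2 or of strains 25 and 24, differed by less than their counting error. These intervals cover read counting alone, not differences between pools. The median SD of the 281 tested rows was 0.45 log2, and 69 rows varied more than miR-31.

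miR-335-5p, the more abundant arm of its hairpin, was close to the filter, with rank 249 of 281 and 31 to 347 reads a library. It averaged 15.7 ± 7.47 CPM (SD, n = 18), and 14.8 ± 6.51 CPM without strain 28. Strain 10 was lowest, at 6.15 CPM (53 reads), followed by strain 20 at 7.32 CPM, strain 7 at 7.57 CPM, strain 14 at 9.63 CPM and strain 24 at 9.83 CPM. Strain 2 had 11.1 CPM, strain 18 had 13.5 CPM, strain 27 had 13.6 CPM, strain 16 had 14.3 CPM, strain 11 had 14.7 CPM and strain 13 had 14.9 CPM. These 6 strains lay around the median of 14.5 CPM. Strain 25 had 17.01 CPM, strain 22 had 17.4 CPM, strain 3 had 19.1 CPM, strain 21 had 19.5 CPM and strain 9 had 24.6 CPM. Strains 23 and 28 were highest, at 31.5 and 31.7 CPM, and did not differ beyond counting error. The highest level was 5.16 times the lowest.

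Counting error was larger beside the spread here, with an SD of 0.13 log2 from counting (on reads without the pseudocount) against 0.63 log2. Of the tested rows, 62 varied more. Of the 17 pairs of neighbours in the order, 1 had intervals that did not overlap, that of strains 9 and 23. So the ends of the order are separated at this depth and the order within the middle is not. Strains 10, 14 and 20 were among the 4 lowest, and strain 13 was near the median. Over strains 10, 13, 14 and 20 the median was 8.47 CPM, and over the other 14 it was 15.8 CPM, with ranges that overlap (6.15 to 14.9 and 7.57 to 31.7 CPM).

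**Figure D1:**
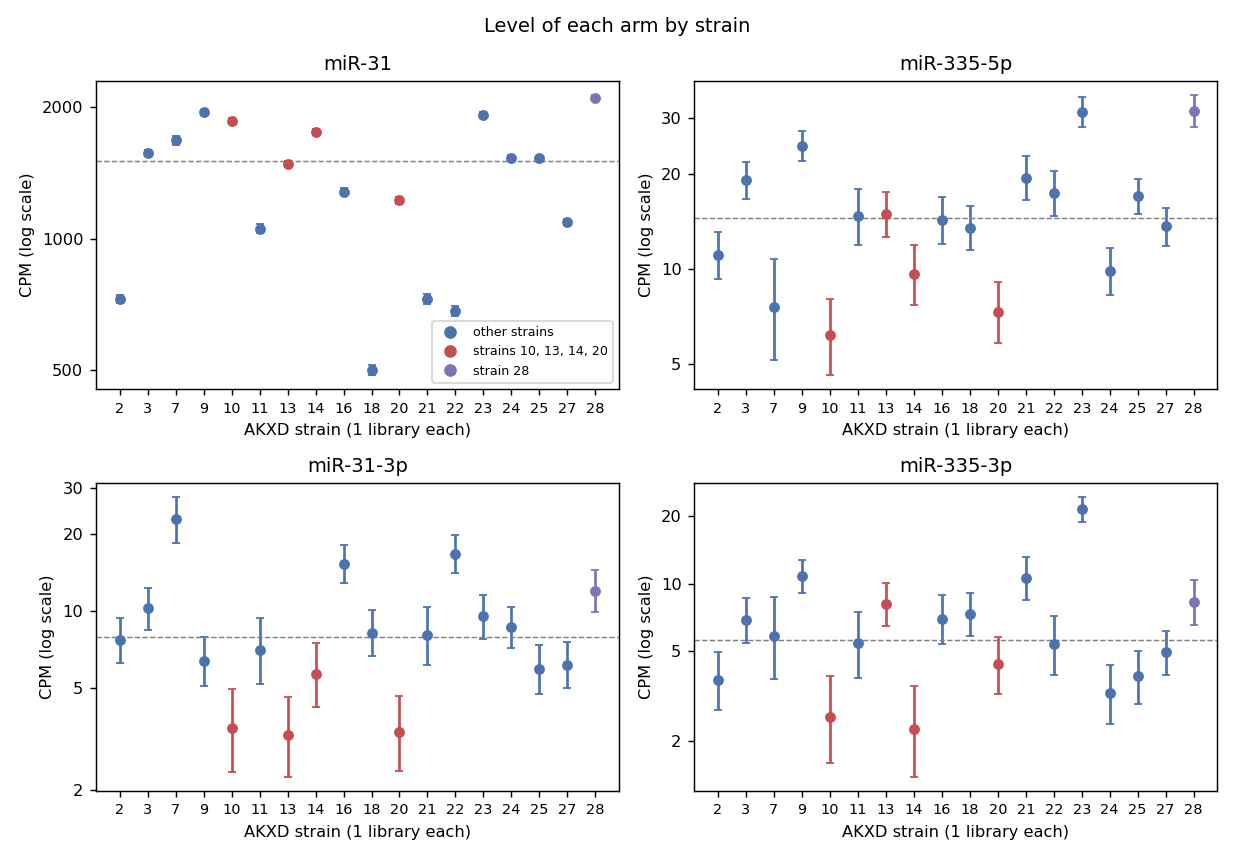
Level of both arms of each hairpin in CPM (log axis, 1 panel per arm, axes differ) in the 18 strains; points are single libraries, bars 95% exact Poisson intervals of the reads, and dashed lines the medians. miR-31 was lowest in strains 2, 18, 21 and 22, and miR-335-5p highest in strains 23 and 28; strains 10, 13, 14 and 20 (red) were not low for miR-31.

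miR-335-3p, the less abundant arm, averaged 6.80 ± 4.44 CPM (SD, n = 18). The lowest value was in strain 14, at 2.27 CPM (20 reads), the median was 5.65 CPM, and the highest was in strain 23, at 21.5 CPM (237 reads). Strain 23 lay 0.93 log2 above the next, strain 9 at 10.8 CPM, and was the single strain to stand off its neighbour beyond counting error. The SD was 0.68 log2, and counting alone would give an SD of 0.21 log2. The counting SD was taken on reads without the pseudocount, and such SDs do not add.

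The share of each arm within a hairpin is measured inside 1 library and does not depend on scaling. miR-31 exceeded miR-31-3p (30 to 142 reads a library) by a median of 176 times. The ratio was lowest in strain 22, at 40.9 (95% exact binomial interval 34.6 to 48.7), and highest in strain 10, at 534 (374 to 791). All of strains 10, 13, 14 and 20 had ratios of 310.5 to 534, above the other 14 strains at 40.9 to 305, although the interval of strain 14 (235 to 419) overlaps that of strain 9 (246 to 382). The level of miR-31 in these 4 strains was 1223 to 1859 CPM, inside the range of the others. miR-31-3p was at 3.28 to 5.66 CPM in these 4, against 5.95 to 22.7 CPM in the other 14.

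miR-31-3p was also lower where libraries were deeper. Spearman rho was -0.725 (permutation p = 0.001, adjusted p = 0.012 over 12 relations with depth, scale factor and principal component). Pearson r was -0.767 (permutation p = 0.00012) and -0.647 without strains 7 and 28, farthest from the median depth. It rose with the principal component, with rho = 0.657 (permutation p = 0.00364, adjusted p = 0.0218) and r = 0.732 (permutation p = 0.00052), and r = 0.598 without strains 10 and 13. It also rose with the scale factor, with rho = 0.635 (permutation p = 0.00561, adjusted p = 0.0224) and r = 0.603 (permutation p = 0.00785), and r = 0.622 without strains 14 and 28. The part of depth and library composition in the arm ratio was not tested. For miR-31 itself the relation to depth had rho = 0.0423 (permutation p = 0.868, adjusted p = 0.868). Its r was 0.0965 (permutation p = 0.705), and 0.504 without strains 7 and 28 (permutation p = 0.0459).

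miR-335-5p exceeded miR-335-3p by a median of 2.56 times, and the 95% interval of the ratio lay above 1 in 17 of 18 libraries, all but strain 7. Over all libraries, 29.8% of all reads of the hairpin came from the 3p arm. The ratio ran from 1.29 in strain 7 (0.734 to 2.30, with 31 and 24 reads) to 4.39 in strain 25 (3.27 to 5.98). Strain 23, highest for the 3p arm, had a ratio of 1.46 (1.24 to 1.73), whose interval does not overlap that of strain 28, at 3.82 (2.96 to 4.97). The 5p levels of those strains were nearly equal.

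**Figure D2:**
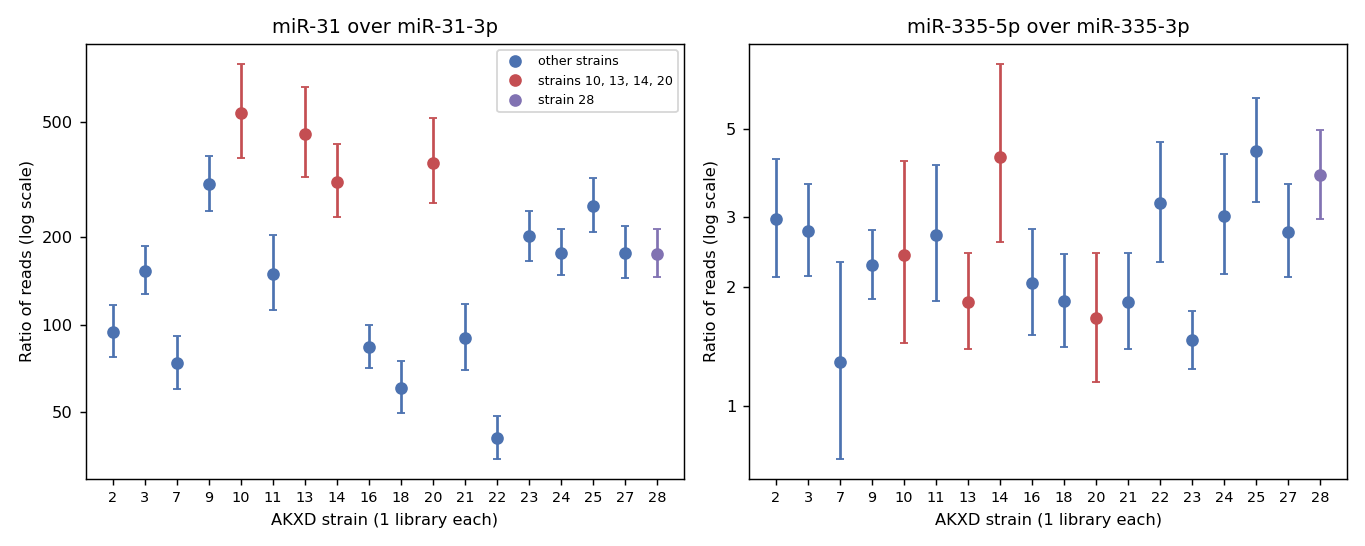
Ratio of reads of the more abundant to the less abundant arm (log axis) in each of the 18 libraries, with 95% exact binomial intervals. Left, the ratio for miR-31 was 310.5 to 534 in strains 10, 13, 14 and 20 (red) and 40.9 to 305 in the others; right, the ratio for miR-335 stayed between 1.29 and 4.39.

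The pair of suppressors was then compared across strains. miR-31 and miR-335-5p did not vary together beyond what permuted strains give: Pearson r was 0.0963 (95% Fisher interval -0.388 to 0.539, permutation p = 0.702), and Spearman rho was 0.168 (permutation p = 0.504, n = 18). Adjusted over the 21 relations computed, p was 0.941 for rho. With the strains farthest from the median of miR-31 left out (18 and 22), r was 0.168 (permutation p = 0.532). The Spearman correlation was 0.393 without strains 10, 13, 14 and 20 (adjusted p = 0.824) and 0.0662 without strain 28 (adjusted p = 0.93). Strains 28, 23 and 9 were the 3 highest for both. Strain 10, lowest for miR-335-5p, was near the top for miR-31 (1859 CPM), so that their read ratio was 302 there and 36.9 in strain 18. The interval of r is wide, and a moderate relation in either direction is within it.

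The arms of the Mir335 hairpin did vary together. miR-335-5p and miR-335-3p had r = 0.773 (95% Fisher interval 0.478 to 0.911, permutation p = 0.00012) and rho = 0.759 (permutation p = 0.00045, adjusted over 21 relations p = 0.00945). With the strains farthest from the median of miR-335-5p left out (10 and 28), r was 0.760 (permutation p = 0.00071). Without strains 10, 13, 14 and 20, rho was 0.705 over 14 strains and the adjusted p was 0.132. miR-31 and miR-31-3p did not pass, with r = -0.110 (permutation p = 0.666) and r = 0.0701 without strains 18 and 22. Their rho was -0.00929 (permutation p = 0.974, adjusted over 21 relations p = 0.988). Their rho changed sign with total counts alone (0.160) and without strains 10, 13, 14 and 20 (0.174).

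**Figure D3:**
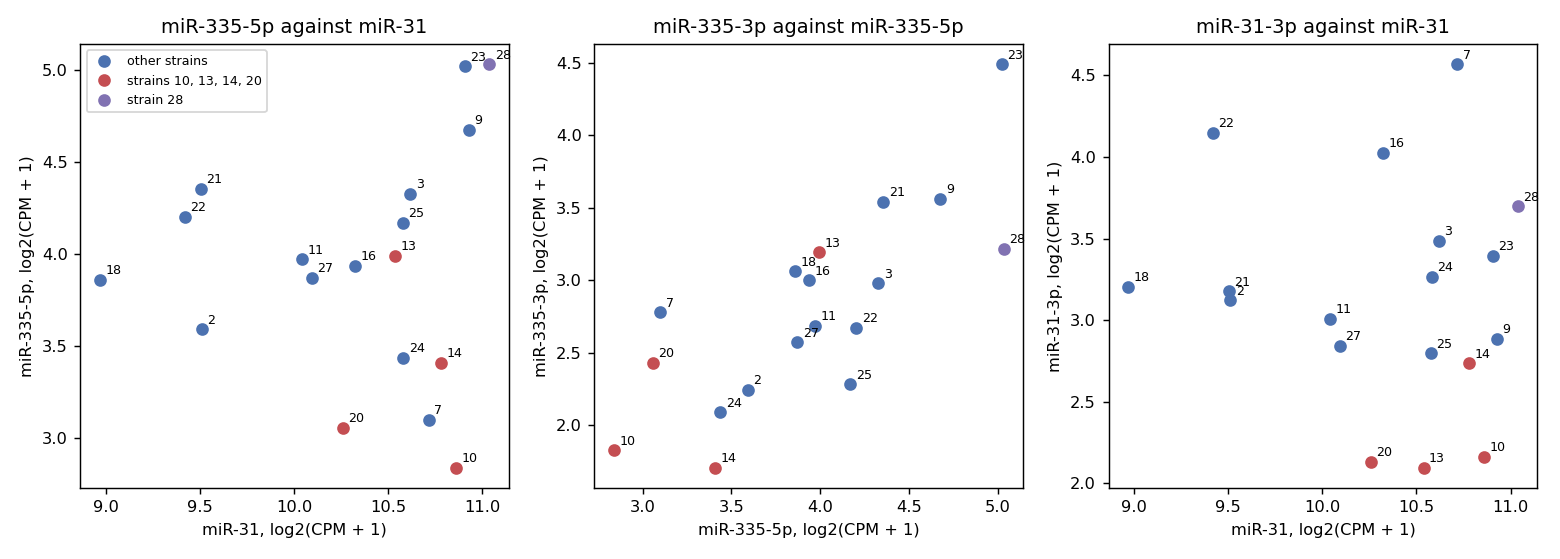
Levels on the log2(CPM + 1) scale in the 18 libraries, labelled by strain: miR-335-5p against miR-31, miR-335-3p against miR-335-5p, and miR-31-3p against miR-31. The middle panel shows the relation of the arms of Mir335 (rho = 0.759), and the other panels show rho of 0.168 and -0.00929.

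To find miRNAs that vary with miR-31, the log2(CPM + 1) of each other tested row was fitted on that of miR-31 with limma. None was called, 0% of 280 rows at a Benjamini-Hochberg adjusted p under 0.05, with 36 rows at an unadjusted p under 0.05 (17 with a positive slope and 19 with a negative one). The Spearman permutation test also called 0 (22 at an unadjusted p under 0.05). The smallest adjusted p in limma was 0.255. Without strain 28, 1 row was called, the star arm of miR-9, with a slope of 1.79 ± 0.38 log2 per log2 of miR-31 (SE; limma adjusted p = 0.0387). Over all 18 strains that slope was 1.41 ± 0.44 (adjusted p = 0.255). miR-9, from the same hairpin and known from neural tissue and as a promoter of metastasis, had a slope of 1.04 ± 0.39 (adjusted p = 0.279).

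By Spearman rho over the 18 strains, the rows most like miR-31 were both arms of miR-140, a miRNA best known from cartilage. miR-140 had rho = 0.670 (permutation p = 0.00311, adjusted over 280 rows p = 0.435) and r = 0.574 (permutation p = 0.013), with r = 0.459 without strains 18 and 22. It was lowest in strain 18, as miR-31 was, at 456 CPM, and highest in strain 25, at 3866 CPM. In strain 3, where miR-31 was above its median, miR-140 was nearly as low, at 480 CPM. Its star arm, the more abundant of the pair at a mean of 5510.0 CPM, had rho = 0.668 (adjusted p = 0.435). That arm was lowest in strain 3, at 2086 CPM, against 2459 CPM in strain 18. miR-1839-5p (0.622), miR-669c (0.534) and miR-182 (0.523) completed the 5 highest values of rho. At the other end stood miR-720 (-0.575), miR-149 (-0.536), miR-1937a (-0.531), miR-434-3p (-0.529) and the star arm of miR-136 (-0.527). With total counts alone the slope on miR-31 went from -0.60 to 0.01 for miR-149 and from -0.61 to -0.21 for miR-434-3p. It went from -0.44 to -0.17 for miR-1937a and from -0.28 to -0.09 for the star arm of miR-136. At the positive end it went from 0.75 to 1.02 for miR-140, from 0.30 to 0.36 for miR-1839-5p and from 0.37 to 0.31 for miR-182. miR-720 and miR-1937a are names given to tRNA fragments, and miR-434-3p and miR-136 come from the imprinted Dlk1-Dio3 region. None of these 10 rows passed adjustment in limma or in the permutation test (adjusted p of 0.255 to 0.484 and 0.435 to 0.56).

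Of the rows fitted on miR-335-5p, 0% of 280 were called as well, with 57 at an unadjusted p under 0.05 in limma (32 positive, 25 negative) and 45 in the Spearman permutation test, which called 0. The smallest adjusted p in limma was 0.176. The 57 rows in limma fell to 11 of 281 without strains 10, 13, 14 and 20. They fell to 16 of 280 with the first principal component as covariate, and neither fit called a row. The number called depended on 1 library: without strain 23, limma called 14 rows, 9 with a positive and 5 with a negative slope. Among them were let-7c (slope -1.26 ± 0.35), let-7f (-0.63 ± 0.16) and let-7a (-0.46 ± 0.13), members of a family linked to differentiation, and miR-96 (0.77 ± 0.21) on the positive side. Each of these 4 had a limma adjusted p of 0.047. The smallest limma adjusted p, 0.0402, was that of the star arm of miR-24-1 (slope 0.82 ± 0.18) and of miR-297c (1.05 ± 0.24). No let-7 row other than those named was called. Over all 18 strains the slope was -0.91 for let-7c and 0.57 for miR-96, with limma adjusted p = 0.176 for both. The slope of let-7c also rests on strain 28, without which it was -0.22, whereas that of miR-96 was 0.61.

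With libraries scaled by total counts alone, 48.4% of 281 rows were called with miR-335-5p, 133 of 136 with a positive slope. Its scaled level also rose with the scale factor of the library, with rho = 0.598 (permutation p = 0.0102, adjusted over 12 relations p = 0.0307) and r = 0.623 (permutation p = 0.00533). Without strains 14 and 28, which hold the extreme factors, r was 0.478 (permutation p = 0.0621), so the relation rests in part on those libraries. The unscaled level ran from 4.39 (strain 10) to 53.1 CPM (strain 28), an SD of 0.85 log2 against 0.63 log2 when scaled. The same change of scaling called 0 rows with miR-31, whose relation to the scale factor had rho = -0.172 (permutation p = 0.494, adjusted p = 0.539) and r = -0.206 (permutation p = 0.41; -0.434 without strains 14 and 28).

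The rows most like miR-335-5p were miR-204 (rho = 0.717), miR-674 (0.664), the star arm of miR-872 (0.649), miR-423-3p (0.620) and miR-130a (0.608). miR-204, which lies in an intron of Trpm3 and is known from the eye and kidney, had r = 0.676 (permutation p = 0.00224; 0.654 without strains 10 and 28) and permutation p = 0.00123 for rho, adjusted over 280 rows 0.211. It was lowest in strain 24, at 2.62 CPM, and highest in strain 21, at 81.7 CPM, with 62.1 CPM in strain 23. Its slope was 1.36 ± 0.34 log2 per log2 of miR-335-5p (limma adjusted p = 0.176), and 1.61 without strains 10, 13, 14 and 20 (adjusted p = 0.279). At the negative end were miR-148a (rho = -0.690), miR-196b (-0.666), miR-126-3p (-0.614), miR-152 (-0.608) and miR-676 (-0.589). miR-148a and miR-152 are members of 1 family, abundant in mammary epithelium. miR-148a was lowest in strain 23 (37538 CPM) and second lowest in strain 9 (37839 CPM), where miR-335-5p was high, and highest in strain 20 (76156 CPM). With total counts alone its slope changed sign, from -0.36 to 0.07, and so did that of miR-152 (-0.26 to 0.11). None of these 10 rows was called in limma.

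Other miRNAs studied in metastasis were taken as 2 lists. Of the 12 suppressors, 0 of 12 were called with miR-31 in either direction, 8 had a positive slope, and the median slope was 0.02, against 0.002 over all 280 rows. With miR-335-5p, 0 of 12 were called, 5 had a positive slope, and the median was -0.11, against 0.01 over all rows. The most abundant, miR-146b, an inhibitor of inflammatory signalling, had slopes of -0.45 ± 0.50 on miR-31 and -1.13 ± 0.42 on miR-335-5p (limma adjusted p = 0.681 and 0.176). Both rest on strain 28, without which they were 0.23 and -0.27. miR-200c, which holds cells in an epithelial state, had 0.27 ± 0.15 and -0.25 ± 0.15 (adjusted p = 0.385 and 0.331).

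Of the 10 promoters of metastasis, 0 of 10 were called with either member. On miR-31, 8 had a positive slope and the median was 0.19, and on miR-335-5p, 3 had a positive slope and the median was -0.09. miR-21 had slopes of -0.96 ± 0.67 and -1.27 ± 0.62 (limma adjusted p = 0.484 and 0.254), which became -0.03 and 0.03 without strain 28. miR-182, a sensory organ miRNA raised in several cancers, had 0.37 ± 0.19 on miR-31 and -0.14 ± 0.20 on miR-335-5p (adjusted p = 0.364 and 0.707). As 0% of the 280 rows were called with either member, a count of 0 was fixed for any list. Such counts do not compare these lists, or the chromosome 6 and Dlk1-Dio3 lists below, with other rows.

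**Figure D4:**
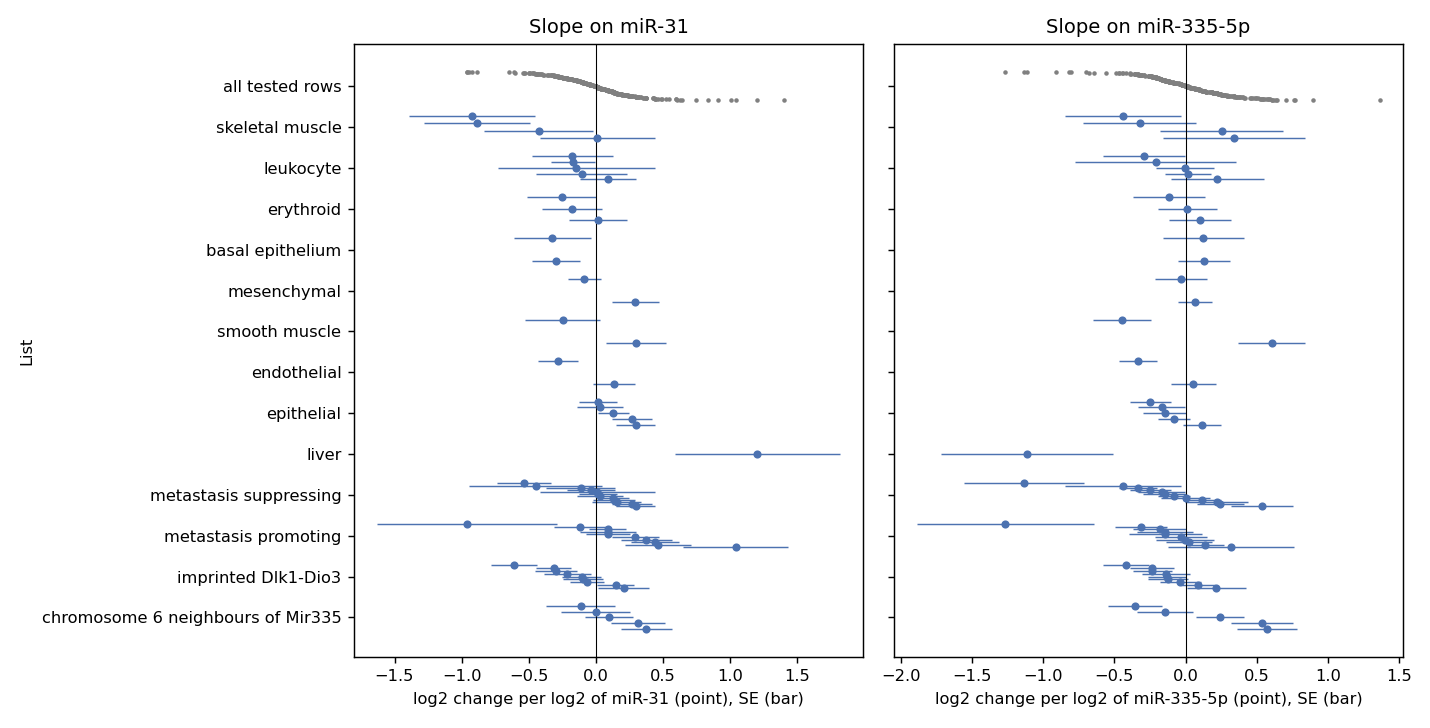
Slopes of the rows of each list on miR-31 (left) and on miR-335-5p (right), in log2 per log2 of the member over 18 libraries, with SE bars; grey points in the top line are all 280 fitted rows. No row was called in either fit, and the lowest point of the metastasis promoting list in both panels is miR-21, whose slope rests on strain 28.

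The miRNA genes next to Mir335 on chromosome 6 were then compared with it. Mir182, Mir96 and Mir183 lie 572 to 575 kb before it and Mir29a and Mir29b-1 321 to 322 kb after it, all on the opposite strand. On miR-335-5p, 3 of 5 had a positive slope and 0 of 5 were called, and the median slope was 0.24, against 0.01 over all 280 rows. miR-96 had a slope of 0.57 ± 0.21 and miR-29b one of 0.54 ± 0.22 (limma adjusted p = 0.176 for both), and miR-183, of the same cluster as miR-96, one of -0.35 ± 0.19 (adjusted p = 0.282). The row miR-29b does not name the gene its reads came from, so it cannot be tied to Mir29b-1 alone. Without strains 10, 13, 14 and 20 the slopes were 0.26 for miR-96, 0.02 for miR-29b and 0.08 for miR-183. Of the imprinted Dlk1-Dio3 list, 9 of 11 rows were tested and 0 were called with either member. Its most abundant row, miR-379, had a slope of -0.10 ± 0.15 on miR-31 and -0.24 ± 0.14 on miR-335-5p (limma adjusted p = 0.782 and 0.331). Of its 9 tested rows, 7 had a negative slope on each member, and the median slope was -0.11 and -0.13, against 0.002 and 0.01 over all 280 rows. These rows come from 1 region, so their signs cannot be taken as separate observations.

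Marker miRNAs of other cell types that a tumour pool can hold were set beside both members. No list had a row at 0 in every library. Of 18 relations between a member and the summed level of a list, 0 passed adjustment over the 21 relations. The closest was that of miR-335-5p with the 2 arms of endothelial miR-126, where rho was -0.616 (permutation p = 0.00747, adjusted p = 0.0784). Its r was -0.533 (permutation p = 0.0224), and -0.422 without strains 10 and 28. The summed level of these arms was 8285 (strain 16) to 22308 CPM (strain 14). miR-126-3p had a slope of -0.33 ± 0.13 on miR-335-5p (limma adjusted p = 0.176), and miR-126-5p one of 0.05 ± 0.16 (adjusted p = 0.9). That relation passed with median-of-ratios scaling (rho = -0.670, adjusted p = 0.0302) and without strain 16 (-0.711, adjusted p = 0.0175), strain 18 (-0.708, adjusted p = 0.0197) or strain 27 (-0.664, adjusted p = 0.0479), and it was lost with total counts alone (rho = 0.0464, adjusted p = 0.968). Without strains 10, 13, 14 and 20 it was weaker, with rho = -0.521 and r = -0.373 (adjusted p = 0.625).

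For miR-31, the closest list was the liver miRNA miR-122, which ranged from 1.56 CPM (strain 21) to 375 CPM (strain 14), with rho = 0.463 (permutation p = 0.0547, adjusted p = 0.383) and r = 0.409 (permutation p = 0.0925; 0.395 without strains 18 and 22). Without strain 28 it passed (rho = 0.674, adjusted p = 0.0401). The slope of miR-122 on miR-31 was 1.20 ± 0.62 (limma adjusted p = 0.364), and 1.66 without strain 28 (limma adjusted p = 0.0937). It was 0.25 with total counts alone and 0.79 without strains 10, 13, 14 and 20 (limma adjusted p = 0.855 and 0.624). The 4 skeletal muscle rows summed to 22469 (strain 9) to 303145 CPM (strain 14) and had rho = -0.296 with miR-31 (adjusted p = 0.607) and -0.214 with miR-335-5p (adjusted p = 0.832). The muscle sum follows miR-1, at a mean of 97267.5 CPM against 3139 CPM for miR-206, the next most abundant. On miR-31 the slopes were -0.43 for miR-1, -0.92 for miR-133a, -0.89 for miR-133b and 0.01 for miR-206. On miR-335-5p they were -0.32, 0.34, 0.25 and -0.44, and none of these slopes was called. The 5 leukocyte rows summed to 1573 (strain 10) to 18250.2 CPM (strain 27) and had rho = 0.0898 with miR-31 (adjusted p = 0.941) and 0.121 with miR-335-5p (adjusted p = 0.941). The 5 epithelial rows had rho = 0.370 with miR-31 (adjusted p = 0.419) and -0.218 with miR-335-5p (adjusted p = 0.832). With smooth muscle miR-143 and miR-145 summed, rho was 0.362 for miR-31 (adjusted p = 0.419) and -0.404 for miR-335-5p (adjusted p = 0.404). This sum follows miR-143, at a mean of 33010 CPM against 162 CPM for miR-145, and these rows had slopes of opposite sign. Slopes on miR-335-5p were -0.45 ± 0.20 for miR-143 and 0.60 ± 0.24 for miR-145 (limma adjusted p = 0.221 and 0.176). On miR-31 they were 0.30 ± 0.23 and -0.25 ± 0.28 (limma adjusted p = 0.521 and 0.681). The erythroid, basal and mesenchymal lists had rho between -0.0939 and 0.0836 with both members. For miR-31 and the basal list r was -0.298 (permutation p = 0.229), and -0.500 without strains 18 and 22 (permutation p = 0.0455), beside a rho of -0.00516. The part of cell content in the levels of miR-31 and miR-335 was not tested.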

How the data were processed

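The deposited table holds 583 miRNA rows and 18 columns of log2 values made by the authors, 1 column per strain. BWA and mm9 appear, with no version or step, per the submitters' processing notes, and no source used here names a counter or annotation. Undoing the log2 gave whole reads times a constant for each library (0.999 to 1.39), to within 0.006 log2 in 100% of 3818 low values (at most 50 reads). Higher reads carry the rounding of the deposited values. Values were turned back to reads, 20 rows in 8 identical sets were counted once per set (571 rows), and a trimmed mean of M values set each library's scale factor. A pseudocount of 1 CPM, which understates changes of low miRNAs, was added before log2. Tests covered rows whose mean reached 10 CPM.

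Slopes were fitted with limma 3.58.1 (R 4.3.3; trend, robust) on the member's level, with Benjamini-Hochberg adjustment over 280 rows and a threshold of 0.05. Relations across strains used two-sided permutation tests of 100000 resamples, adjusted over 21 relations (12 for depth, scale factor and principal component, added after the data were seen). The fit was tested on simulated data. Likeness is Spearman rho, and the 5 highest and 5 lowest rows were named for miR-31 and miR-335-5p, with the most abundant rows of each list; miR-96, miR-29b, miR-183, miR-9 and the let-7 rows were named after their values were seen. Members and lists were chosen with earlier results of these data known. Intervals of levels and ratios describe counting error alone. PCR copies could not be told from other reads here, and copies counted as reads would make these intervals too narrow. Alternatives were other scalings, filters and pseudocounts, strains left out, a rank test and a principal component as covariate. Python 3.11.15 with numpy 2.4.6 was used.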

Additional observations from a re-analysis of the deposited data

How the results depend on the processing

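No paired analysis was possible because each strain has 1 library. The labels give no batch. With each strain left out in turn, the SD was 0.52 to 0.64 log2 for miR-31, 0.58 to 0.65 for miR-335-5p and 0.55 to 0.70 for miR-335-3p, and with a pseudocount of 5 CPM the SD of miR-335-3p fell to 0.45. With 1 strain left out, the rho of miR-31 with miR-335-5p was 0.01 to 0.27 and that of the miR-335 arms 0.72 to 0.82. With total counts alone these were 0.34 (adjusted p = 0.453) and 0.87 (adjusted p = 0.00021), and without strains 10, 13, 14 and 20 the first was 0.39. The relation of the arms lost its call without strains 10, 13, 14 and 20 (0.71), where 14 strains are left. The rho of miR-31 with miR-31-3p ran from -0.10 to 0.13 with 1 strain left out, and was 0.16 with total counts alone and 0.17 without the 4 strains; it was never called. The number of cell type relations called was 0 to 1 with 1 strain left out, 1 with median-of-ratios scaling and 1 without strain 28. Rows called with miR-31 numbered 0 to 1 with 1 strain left out (1 without strain 28), and 0 in the other alternatives. Rows called with miR-335-5p numbered 0 to 14 with 1 strain left out, 136 with total counts alone, and 1 with no filter, which was miR-335-3p (slope 0.84 ± 0.17, limma adjusted p = 0.047); the other alternatives gave 0. The cause of these changes was not tested. With 20 to 347 reads a library, depth limits the order of strains for both arms of miR-335.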
